A study of Mus musculus with 12 samples.

Results

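Genes for collagens, laminins and integrins, together with Fn1, Sparc, Nid1, Nid2 and Hspg2, were followed across 12 single cardiac precursor cells (CPs) of CD1 mouse embryos. Members were chosen by symbol alone: Col, Lama, Lamb or Lamc followed by a digit, Itga or Itgb followed by a digit, a letter or nothing (the Itgb1bp and Itgb3bp genes were left out), and the 5 named genes. The rule took 55 of the 14063 gene symbols listed. They were 26 collagen genes, 8 laminin genes, 10 integrin alpha and 5 integrin beta genes, and 6 others, of which 1, Col4a3bp, shares the start of its name with a collagen but encodes a ceramide transfer protein.

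CPs had been picked by capillary from the trypsin-dissociated anterior, heart-forming region at the early allantoic bud (EB) and the early head fold (EHF) stage. Each cell's cDNA was amplified by PCR and sequenced, and the labels give 4 subpopulations of 3 cells, the Nkx2-5+ and the Tbx5+ cells of the EB stage and, from the EHF stage, the Nkx2-5+ and the Nkx2-5+/Tbx5+ cells. No transgene, drug or knockout was used in any of them, and the subpopulations were set by PCR for Nkx2-5 and Tbx5 on the same cDNA. The labels do not say which cells came from the same embryo, so each subpopulation counted as 1 sample, no test was possible, and every difference below is a description of these cells.

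Laminins are trimers of an alpha, a beta and a gamma chain that polymerise on the cell surface and, with the type IV collagen network, form the basement membrane. Nidogens and perlecan bridge the laminin and collagen networks. Fibronectin, encoded by Fn1, is the main matrix protein on which mesoderm of the gastrulating embryo spreads and moves. Integrins, each a pair of an alpha and a beta chain, bind these proteins and link them to the actin cytoskeleton. In the mouse, loss of fibronectin or of its receptor chain Itga5 is lethal around midgestation with defects of mesoderm and vessels.

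Sequencing depth ran from 12475588 to 37905007 alignments per cell, so that 3 reads, the limit that a count of 0 allows, corresponded to 0.0791 to 0.24 reads per 1000000 (RPM). That limit covers counting error only, since the cDNA was amplified and carried no molecular identifiers. Genes at 1 RPM or more numbered 2682 to 5650 per cell. EHF Nkx2-5+/Tbx5+ cell 3 had the fewest, followed by EHF Nkx2-5+ cell 2 with 3073, and cell 3 also stood apart in Gapdh, which was at 14.3 RPM there and at 112.7 to 311 RPM elsewhere. As a check of the labels, Nkx2-5 was at 1 RPM or more in the 9 cells labelled Nkx2-5+ and listed at 0 in the 3 EB Tbx5+ cells, whereas Tbx5 reached 1 RPM in the 3 EHF Nkx2-5+/Tbx5+ cells but was at most 0.335 RPM in the EB Tbx5+ cells, whose label rests on PCR. Cfc1, the marker by which candidate cells were recognised, reached 1 RPM in 9 of the 12 cells. Of the 6 definitive endoderm markers listed, 0 reached 1 RPM in any cell. For Sox17, 1 of the 6, this followed from selection, since the study had excluded cDNAs positive for Sox17 or Sox2 by PCR. Markers of other cell types were mixed. The endothelial marker Tek was listed at 0 in all 12 cells, whereas Kdr, which marks early mesoderm as well as endothelium, was at 339 to 495 RPM in 3 cells. Runx1 was at 10.6 RPM in EB Tbx5+ cell 1, and Gata1 was under 1 RPM in every cell. Of the 7 ectoderm markers listed, Cdh1 was at 0 throughout. The epithelial keratin Krt8, however, was above 1 RPM in all 12 cells (up to 855 RPM) and Krt18 in 9 (up to 871 RPM). Epcam was at 164 RPM in EB Nkx2-5+ cell 2 and 123 RPM in EB Tbx5+ cell 1. Otx2 was at 11.2 RPM in EB Nkx2-5+ cell 3, with Pax6 and Six3 under 1 RPM in every cell. Of the 4 paraxial mesoderm markers listed, Tcf15 was at 6.95 RPM in EB Nkx2-5+ cell 1 and Dll1 at 16.5 RPM in cell 3. Tbx6 and Pax3 stayed under 1 RPM.

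Most members were rare. Of the 55, 49 were above 0 in some cell, 33 reached 1 RPM in at least 1 cell, and 17 had a mean of 10 RPM or more over the 12 cells and entered the comparisons. Col11a1, Col12a1, Itga2b, Itga4, Itgb3 and Itgb4 were listed at 0 throughout. A further 16 members never reached 1 RPM, among them Nid1 with at most 0.561 RPM and Col3a1, the type III fibrillar collagen, with 0.0264 RPM in 1 cell. The 17 that entered were 6 collagens, 4 laminins, 3 integrin alpha chains, 1 integrin beta chain, and Fn1, Nid2 and Sparc. Their cell-to-cell coefficient of variation had a median of 1.73, beside 1.58 over the 5031 genes that met the same minimum.

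**Figure D1:**
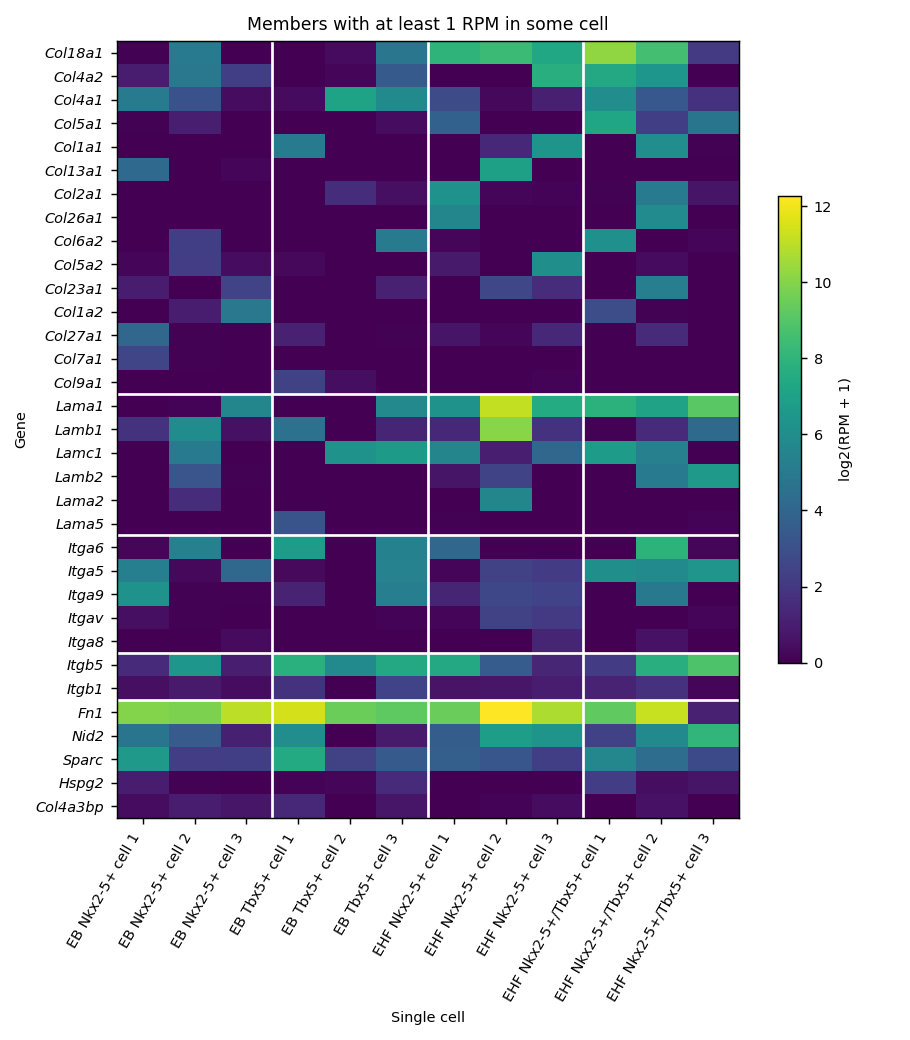
Colour gives log2(RPM + 1) of the 33 members that reached 1 RPM (rows, by family) in each of the 12 single cells (columns, 3 per subpopulation, white lines between families and subpopulations). Fn1 is the only row bright in 11 cells, while most collagen rows are dark in most cells.

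The heat map shows that a cell expressed a different handful of members from its neighbours of the same label. The number of members at 1 RPM or more ran from 6 in EB Tbx5+ cell 2 to 21 in EHF Nkx2-5+/Tbx5+ cell 2. Fn1 alone made up 22.4 to 95.0% of the members' summed RPM in 11 cells, and 0.0753% in EHF Nkx2-5+/Tbx5+ cell 3.

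Fn1 was the most abundant member. EB Nkx2-5+ cells held 1021, 933 and 2140.4 RPM, EB Tbx5+ cells 2829.6, 729.7 and 595 RPM. EHF Nkx2-5+ cells held 701, 4929.6 and 1720.1 RPM, EHF Nkx2-5+/Tbx5+ cells 616, 2427 and 1.15 RPM. All 4 subpopulations overlapped, and the single low value belonged to the cell with low Gapdh and the fewest genes. RPM does not correct for transcript length, so means were also calculated per kilobase of the longest annotated transcript. That of Fn1 was 187 RPM per kb, followed by Col18a1 with 35.5, Itgb5 with 35.4 and Lama1 with 30.8 RPM per kb. The cDNA was primed with oligo(dT), and whether reads rise with transcript length was not tested. Without that division the means were 1554 (Fn1), 293 (Lama1), 198.5 (Col18a1) and 116 RPM (Itgb5), so the order below Fn1 depended on it. Fn1 lies at chr1:71585520-71653200 on the minus strand of GRCm38, the assembly also called mm10.

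Lama1, the alpha chain of laminin-111 and the earliest laminin alpha chain of the embryo, was the member that set the stages apart. EB Nkx2-5+ cells had 0, 0.0882 and 48.0 RPM and EB Tbx5+ cells 0, 0 and 53.3 RPM. EHF Nkx2-5+ cells had 78.7, 2232 and 183 RPM and EHF Nkx2-5+/Tbx5+ cells 238, 134 and 553 RPM. Thus every one of the 6 EHF cells lay above every one of the 6 EB cells, although the lowest EHF cell and the highest EB cells were close. Only 5 of the 5031 genes compared (0.0994%) had all EHF above all EB cells, and Lama1 was the single member among them. The difference of the means was 4.43 on the log2 scale (10 RPM added to each mean here and below), and it ran from 3.20 to 4.88 as each cell was left out and was 2.65 without the 2 cells with the fewest genes. This comparison of all EHF with all EB cells was chosen after the values had been seen. Lama1 lies at chr17:67697259-67822647 on the plus strand.

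Partner chains of Lama1 did not follow it. Lamb1, the beta chain of laminin-111, had 2.45, 61.2 and 0.446 RPM in EB Nkx2-5+, 23.8, 0.0276 and 1.43 RPM in EB Tbx5+, 1.55, 1075 and 2.48 RPM in EHF Nkx2-5+, and 0.0528, 1.72 and 17.9 RPM in EHF Nkx2-5+/Tbx5+ cells. EHF Nkx2-5+ cell 2 held 90.5% of all Lamb1 RPM, and the other 11 cells overlapped across subpopulations. Lamc1, the gamma chain, had 0, 33.5 and 0.0279 RPM, then 0, 75.5 and 101 RPM in the EB cells and 46.4, 1.02 and 15.8 RPM, then 110.0, 39.7 and 0 RPM in the EHF cells, in the same order. Its subpopulations overlapped throughout. Lamb2, the beta chain of laminins at vessel and muscle basement membranes, was high in EHF Nkx2-5+/Tbx5+ cells 2 and 3 (31.5 and 94.2 RPM), listed at 0 in cell 1, and at most 8.38 RPM in the other 9 cells. Lama2 was at 48.9 RPM in EHF Nkx2-5+ cell 2 and at most 1.90 RPM elsewhere, Lama5 reached 8.0 RPM in EB Tbx5+ cell 1 alone, and Lama4 never reached 1 RPM.

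Col18a1, whose product carries heparan sulfate chains at basement membranes and is the source of endostatin, was the second member with a stage pattern. It had 0.036, 31.9 and 0 RPM in EB Nkx2-5+ and 0.0272, 0.276 and 27.1 RPM in EB Tbx5+ cells. EHF Nkx2-5+ cells had 249.9, 328 and 158 RPM and EHF Nkx2-5+/Tbx5+ cells 1194, 389 and 3.21 RPM. Hence 5 of 6 EHF cells lay above all EB cells, and the exception was again EHF Nkx2-5+/Tbx5+ cell 3. The log2 difference of all EHF against all EB cells was 4.32, from 3.57 to 4.68 as each cell was left out.

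Col18a1 lies on the minus strand of chromosome 10, and RefSeq gives it separate starts. The 250 bases before each are shown because the file's single value per gene cannot tell which start was used. Capitals mark GC boxes (GGGCGG, here read as CCGCCC) and a CCAAT box (here read as ATTGG). Both windows are printed 5′ to 3′ on the gene's strand from the RefSeq promoter table of GRCm38.p6.
Distal start, chr10:77166531-77166780, minus strand: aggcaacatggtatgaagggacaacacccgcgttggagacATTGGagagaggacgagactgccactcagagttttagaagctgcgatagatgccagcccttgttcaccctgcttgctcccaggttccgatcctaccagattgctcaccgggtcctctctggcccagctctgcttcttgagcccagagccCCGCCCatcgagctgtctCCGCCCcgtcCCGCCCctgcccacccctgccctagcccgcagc
Proximal start, chr10:77113706-77113955, minus strand: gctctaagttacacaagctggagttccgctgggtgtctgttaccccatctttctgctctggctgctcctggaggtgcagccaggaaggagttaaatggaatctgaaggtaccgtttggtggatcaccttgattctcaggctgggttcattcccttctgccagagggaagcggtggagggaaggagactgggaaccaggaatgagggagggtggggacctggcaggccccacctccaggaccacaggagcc
The distal window held 3 GC boxes and 1 CCAAT box, and the proximal window held 0 of the 5 motifs searched.

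**Figure D2:**
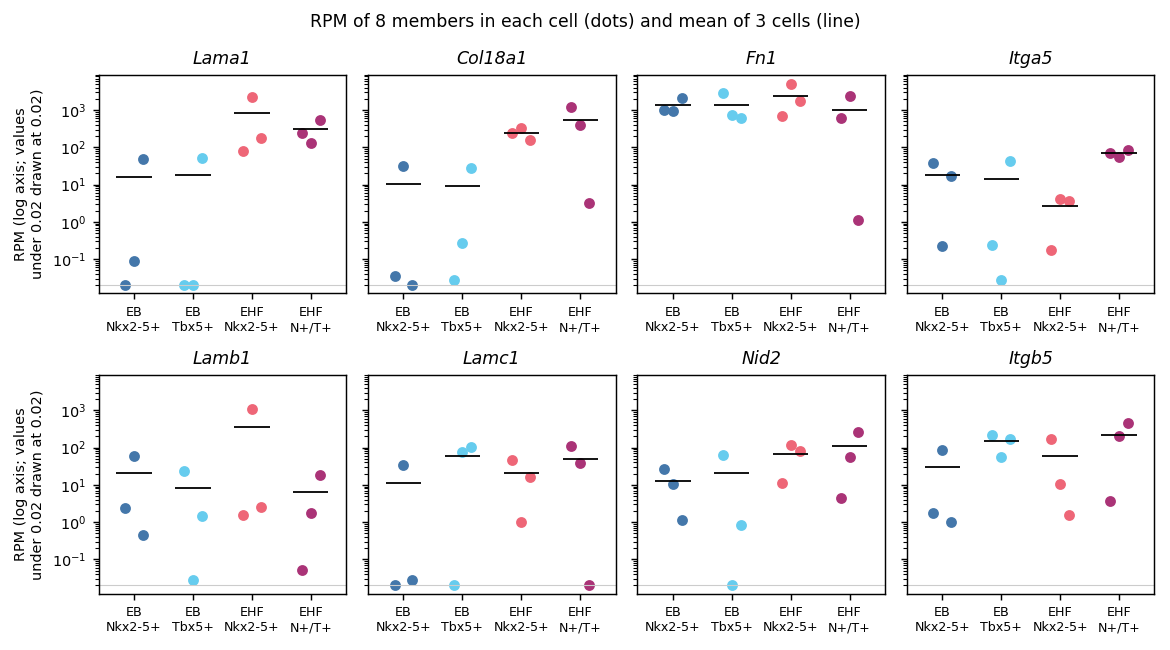
Dots give the RPM of 8 members in each single cell on a log axis, by subpopulation (N+/T+ is Nkx2-5+/Tbx5+), lines give the mean of 3 cells, and values under 0.02 RPM are drawn at 0.02. All 6 EHF dots of Lama1 lie above all 6 EB dots, and the 3 EHF Nkx2-5+/Tbx5+ dots of Itga5 (56.7 to 84.0 RPM) lie above the other 9.

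The plot of single cells also shows Nid2, Lamb1 and Itgb5, whose means are set by 1 or a few cells.

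Type IV collagen, the network collagen of basement membranes, is a trimer of mostly Col4a1 and Col4a2 chains. Col4a1 had 33.5, 7.63 and 0.334 RPM in EB Nkx2-5+, 0.272, 138 and 55.1 RPM in EB Tbx5+, 6.30, 0.197 and 1.12 RPM in EHF Nkx2-5+, and 63.7, 9.35 and 2.35 RPM in EHF Nkx2-5+/Tbx5+ cells. Col4a2 had 1.01, 28.9 and 3.87 RPM, then 0, 0.138 and 10.0 RPM, then 0, 0 and 208 RPM, then 168, 85.7 and 0.0287 RPM in the same order. Neither gene separated any subpopulation from the others. Both chains were at 10 RPM or more in 2 cells, EHF Nkx2-5+/Tbx5+ cell 1 and EB Tbx5+ cell 3, whereas in some other cells they diverged: EB Tbx5+ cell 2 had the highest Col4a1 with Col4a2 at 0.138 RPM, and EHF Nkx2-5+ cell 3 had the highest Col4a2 with Col4a1 at 1.12 RPM.

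The pair is shown with its start region because both genes begin there, head to head and overlapping. Col4a1 starts at 11312826 on the minus strand and Col4a2 at 11312805 on the plus strand of chromosome 8, 21 bases apart. The plus strand from 20 bases outside each start is given from the same RefSeq table, with the GC box in capitals.
Col4a1 and Col4a2, chr8:11312785-11312846, plus strand: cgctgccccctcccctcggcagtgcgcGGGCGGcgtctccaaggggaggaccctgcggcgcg
The library did not mark strand, so reads from the short overlap cannot be told apart between these 2 genes.

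**Figure D3:**
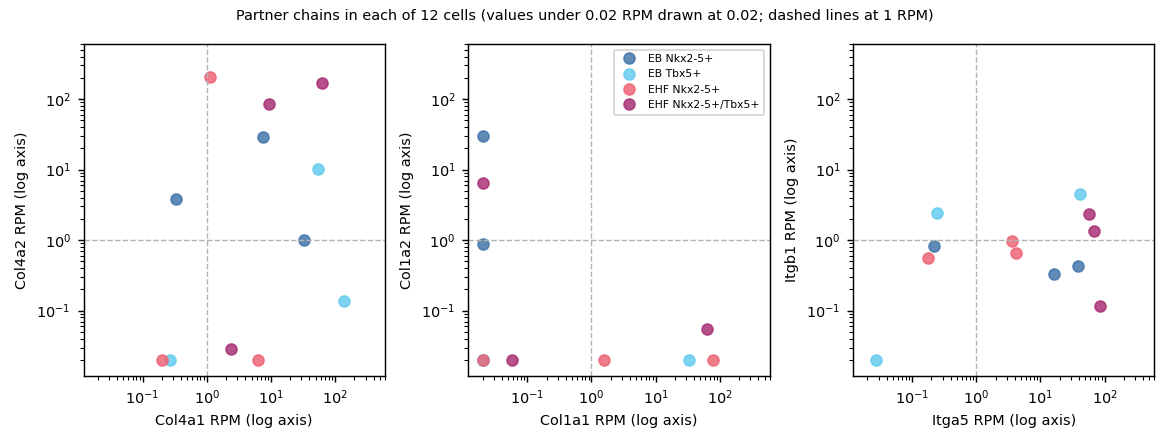
Each dot is 1 of 12 cells, coloured by subpopulation, with the RPM of partner chains on log axes, dashed lines at 1 RPM and values under 0.02 RPM drawn at 0.02, where dots may coincide. In the middle panel the upper right field is empty: no cell had both Col1a1 and Col1a2 at 1 RPM or more. Each reached it in few cells, 4 and 2, so the empty field does not show that they were expressed apart.

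Chains that assemble into 1 protein were counted for detection in the same cell, as the plot of partner chains shows for 3 pairs. Col4a1 was at 1 RPM or more in 9 cells and Col4a2 in 7, and both were in 6 of 12 cells, 3 EB and 3 EHF. Col1a1 and Col1a2, the chains of type I collagen, were detected in 4 and 2 cells and together in 0. With each in so few cells, this does not show that they were expressed apart. The overlap that unrelated detection would give was not calculated for any set. Lama1, Lamb1 and Lamc1 were detected together in 5 cells, 1 EB and 4 EHF, and at a threshold of 10 RPM in 0 cells. Trios with Lama5 or Lama4 in place of Lama1 were detected in 0 cells. A chain counted as missing from a cell was below 1 RPM, in some cells with a value above 0, and absence of its RNA was not tested. At any value above 0, both type IV chains were in 9 cells, both type I chains in 1, and Lama1, Lamb1 and Lamc1 in 8. The trios with Lama5 or Lama4 were then in 1 cell each.

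Fibrillar collagens appeared cell by cell. Col1a1 was at 32.9 RPM in EB Tbx5+ cell 1, 1.55 and 79.4 RPM in EHF Nkx2-5+ cells 2 and 3 and 63.0 RPM in EHF Nkx2-5+/Tbx5+ cell 2, and at most 0.0574 RPM elsewhere. Col1a2 was at 29.5 RPM in EB Nkx2-5+ cell 3 and 6.36 RPM in EHF Nkx2-5+/Tbx5+ cell 1, and under 1 RPM elsewhere. Col5a1, which nucleates collagen fibrils, had 149, 3.80 and 25.9 RPM in the EHF Nkx2-5+/Tbx5+ cells, 12.9 RPM in EHF Nkx2-5+ cell 1, and at most 1.01 RPM in the other 8 cells. Its partner chain Col5a2 was at 69.1 RPM in EHF Nkx2-5+ cell 3, where Col5a1 was listed at 0. Col5a1 therefore reached 1 RPM in each of the 3 EHF Nkx2-5+/Tbx5+ cells, but cell 2 lay below EHF Nkx2-5+ cell 1. Col13a1, a transmembrane collagen, was at 124 RPM in EHF Nkx2-5+ cell 2 and 17.6 RPM in EB Nkx2-5+ cell 1, and at most 0.139 RPM elsewhere. Col2a1, Col6a2, Col26a1 and Col23a1 reached 76.9, 71.2, 59.4 and 36.8 RPM in their highest cells, with means under 10 RPM.

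Linkers and matricellular members differed within each subpopulation. Nid2, which bridges laminin and type IV collagen, had 26.3, 10.7 and 1.12 RPM in EB Nkx2-5+, 63.4, 0 and 0.822 RPM in EB Tbx5+, 11.4, 115 and 81.3 RPM in EHF Nkx2-5+, and 4.34, 55.3 and 269 RPM in EHF Nkx2-5+/Tbx5+ cells. The 3 highest values were in EHF cells, but the stages overlapped. Nid2 reached 1 RPM in 10 of the 12 cells, and Nid1 in 0. Sparc, a collagen-binding matricellular protein, had 99.1, 3.70 and 3.82 RPM, then 181, 4.17 and 10.1 RPM in EB cells, and 12.2, 8.77 and 3.85 RPM, then 49.4, 19.8 and 5.74 RPM in EHF cells. It was above 1 RPM in every cell, with the highest values in single EB cells. Hspg2, the perlecan gene, did not exceed 3.61 RPM.

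Itga5, the alpha chain of the classical fibronectin receptor, was the member that set EHF Nkx2-5+/Tbx5+ cells apart. These cells had 69.0, 56.7 and 84.0 RPM. The EB Nkx2-5+ cells had 38.8, 0.22 and 16.5 RPM, the EB Tbx5+ cells 0.245, 0.0276 and 41.7 RPM, and the EHF Nkx2-5+ cells 0.179, 4.15 and 3.61 RPM. The lowest EHF Nkx2-5+/Tbx5+ cell therefore lay above the highest of the other 9. Among all genes compared, 0.994% had all EHF Nkx2-5+/Tbx5+ cells above all others, and Itga5 was 1 of 17 members. The log2 difference was 1.88, from 1.75 to 2.15 as each cell was left out, and 0.61, under 2-fold, with 100 RPM added in place of 10. Itga5 stands on the study's own list of genes enriched in EHF Nkx2-5+/Tbx5+ cells, and, with the opposite sign, on that for EHF Nkx2-5+ cells. Both were drawn from these cells, so neither direction is independent evidence here.

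The 250 bases before the Itga5 start, chromosome 15, minus strand, are shown because this is the receptor chain that separated a subpopulation. Capitals mark GC boxes on the opposite strand.
Itga5, chr15:103366792-103367041, minus strand: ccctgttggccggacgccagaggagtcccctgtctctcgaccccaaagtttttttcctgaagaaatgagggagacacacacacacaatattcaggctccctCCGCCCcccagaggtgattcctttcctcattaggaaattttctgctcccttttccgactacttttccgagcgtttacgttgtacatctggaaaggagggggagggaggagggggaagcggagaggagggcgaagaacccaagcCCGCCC
The window held 2 GC boxes and, on either strand, no match to the other motifs searched, the CCAAT box, the GATA factor core GATAA, the T-box motif AGGTGT and the NKX2-5 core AAGTG. Over the 40 windows of the 35 members in the table, the GC box was in 24 (60%), the NKX2-5 core in 15 (37.5%), the CCAAT box in 12 (30%), and the GATA and T-box motifs in 3 each (7.5%). Over all 32851 windows of the same length, the shares were 32.7%, 40.7%, 33.8%, 22.6% and 11.8%. These are matches of letters, and no binding was measured.

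The other receptor chains were distributed differently. Itgb1, the common partner of Itga5, Itga6 and Itga9, did not exceed 4.54 RPM and reached 1 RPM in 4 cells, with a mean of 0.318 RPM per kb. Itgb5, the partner of Itgav in a vitronectin receptor, was above 1 RPM in all 12 cells, with 1.80, 86.9 and 1.03 RPM in EB Nkx2-5+, 222, 56.2 and 170.2 RPM in EB Tbx5+, 171, 10.8 and 1.52 RPM in EHF Nkx2-5+, and 3.59, 207 and 464 RPM in EHF Nkx2-5+/Tbx5+ cells. No subpopulation was separated by it. Its mean was far above that of Itgb1 both as RPM (116 against 1.21) and per kilobase (35.4 against 0.318). Itgav reached only 4.37 and 3.21 RPM, in EHF Nkx2-5+ cells 2 and 3, and at most 0.396 RPM elsewhere. It is on the study's list of genes enriched in EHF Nkx2-5+ cells, and was below the minimum mean used here.

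Itga6, an alpha chain of laminin receptors, was highest in EHF Nkx2-5+/Tbx5+ cell 2 (239.5 RPM) and EB Tbx5+ cell 1 (108 RPM), at 15.7 to 40.3 RPM in 3 other cells and at most 0.115 RPM in the remaining 7. Itga9, an alpha chain of a tenascin and fibronectin receptor, was at 74.5 RPM in EB Nkx2-5+ cell 1, 37.0 RPM in EB Tbx5+ cell 3 and 30.2 RPM in EHF Nkx2-5+/Tbx5+ cell 2, and at most 5.39 RPM elsewhere. Neither followed the labels. At 1 RPM or more, Itga5 and Itgb1 were detected together in 3 cells, of the 8 with Itga5, and so were Itga6 with Itgb1 and Itga9 with Itgb1. Itgav and Itgb5 were together in 2 cells. These counts depended on the threshold. At any value above 0 the 4 pairs were together in 11, 7, 10 and 8 cells, in the same order, and at 10 RPM in 0 cells.

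The comparisons of subpopulations asked which members differed past 2-fold, that is, a log2 difference of the means of at least 1 in size. They share cells, so the counts below are not independent of each other. In EHF Nkx2-5+/Tbx5+ against the other 9 cells, 8 of the 17 members were higher and 2 lower, where 19.7% of all 5031 genes were higher and 31.5% lower. Their median log2 difference was 0.57, and that of all genes -0.27. The higher members were Col5a1 (2.58), Col18a1 (2.45), Lamb2 (2.17), Itga5 (1.88), Itga6 (1.46), Nid2 (1.43), Itgb5 (1.38) and Col4a2 (1.32), and the lower ones Lamb1 (-3.08) and Col13a1 (-1.37). Lamb2 is on the study's list for this subpopulation as well.

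Several of these rested on 1 cell. Without EHF Nkx2-5+/Tbx5+ cell 2 the value of Itga6 was -1.70, and without cell 3 those of Nid2 and Itgb5 were -0.16 and 0.35. Without cell 1 that of Col4a2 was 0.48. Lamb1 and Col13a1 were no longer called lower without EHF Nkx2-5+ cell 2, where their values were -0.39 and -0.29. Col5a1, Col18a1, Lamb2 and Itga5 were past 2-fold whichever single cell was left out. Col5a1 and Lamb2, with means of 1.59 and 1.54 RPM in the other 9 cells, met the minimum of 10 RPM only through the EHF Nkx2-5+/Tbx5+ cells, so they lend nothing to the count of higher members. Col13a1 met the minimum only through the EHF Nkx2-5+ cells, with 1.97 RPM in the other 9. It lends nothing to the count of lower members here, nor to the count of higher members in EHF Nkx2-5+ cells below.

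**Figure D4:**
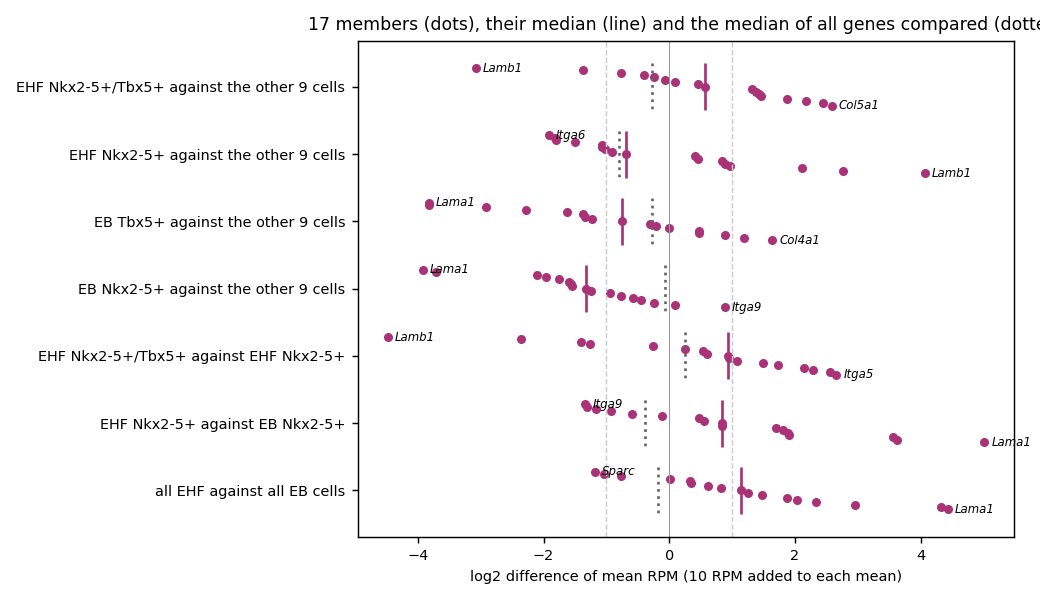
Dots give the log2 difference of mean RPM (10 RPM added) for the 17 members in each comparison, with the outermost named, dashed lines at 2-fold, a line at the members' median and a dotted line at the median of all 5031 genes. Members lie to the right of the all-gene median in EHF Nkx2-5+/Tbx5+ cells (0.57 against -0.27) and to its left in EB Nkx2-5+ cells (-1.33 against -0.074).

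In EHF Nkx2-5+ against the other 9 cells, 3 members were higher and 7 lower, beside 13.1% and 44.9% of all genes. Lamb1 (4.06), Lama1 (2.76) and Col13a1 (2.10) were higher, and all of these calls rested on cell 2: without it the values were -0.88, 0.19 and -0.26. With RPM rescaled to the sum of listed genes without the 100 most abundant, which moved the median of all genes by 0.13, the split was 6 higher and 6 lower, beside 15.6% and 41.7% of all genes. Itga6 (-1.92), Col4a1 (-1.82), Itga5 (-1.80) and Sparc (-1.51) had the lowest values. The lower calls of Itga6, Col4a1 and Itga5 held whichever single cell was left out, and Sparc was -0.91 without EB Tbx5+ cell 1. Col5a1 and Lamb2, also called lower, met the minimum only through the EHF Nkx2-5+/Tbx5+ cells and lend nothing to the count of lower members. The median was -0.69, close to the -0.80 of all genes, and it was 0.04 without EHF Nkx2-5+/Tbx5+ cell 1.

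EHF Nkx2-5+ cell 2 stood apart for matrix genes. It held the highest Fn1 (4929.6 RPM), Lama1 (2232 RPM), Lamb1 (1075 RPM), Lama2 (48.9 RPM) and Col13a1 (124 RPM) of all 12 cells, and its laminin genes summed to 3361 RPM, against 2.45 to 665 RPM in the others. The same cell had the second fewest genes at 1 RPM or more, and the part of that in its high values was not tested. The 7 listed markers of parietal endoderm, a tissue that secretes much laminin and type IV collagen, summed to 8.15 RPM in this cell and to 170 and 0.882 RPM in EHF Nkx2-5+ cells 1 and 3, with Sox7 and Cubn below 1 RPM in every cell. In the other subpopulations that sum was 53.3 to 165, 0.0553 to 30.9 and 83.8 to 678 RPM (EB Nkx2-5+, EB Tbx5+ and EHF Nkx2-5+/Tbx5+), with Pth1r the leading gene in EHF Nkx2-5+/Tbx5+ cell 3 at 678 RPM. Apoe, the 1 visceral endoderm marker listed, was highest in EHF Nkx2-5+ cell 2 at 1223 RPM. It also moved with stage, at 162 to 1223 RPM in 5 EHF cells, 2.67 RPM in EHF Nkx2-5+/Tbx5+ cell 3 and 8.8 to 127 RPM in the EB cells, the pattern across cells seen for Col18a1. Of the 9 lateral plate and cardiac precursor genes checked, 3 reached 1 RPM in EHF Nkx2-5+ cell 2, the fewest of all 12 cells. They were Nkx2-5 (242 RPM), Isl1 (10.9 RPM) and Cfc1 (5.13 RPM), while Gata4, Hand1, Hand2 and Foxf1 stayed below it. The part of these markers in the members' values was not tested.

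In EB Nkx2-5+ against the other 9 cells, 0 members were higher and 10 lower, where 20.5% of all genes were higher and 27.4% lower. The lowest values were those of Lama1 (-3.93), Col18a1 (-3.71), Lamb1 (-2.10) and Itgb5 (-1.96), and the highest that of Itga9 (0.89). The median was -1.33, that of all genes -0.074. The value of Lamb1 turned to 0.96 without EHF Nkx2-5+ cell 2, which is 1 of the 9 other cells. The lower calls of Lama1, Col18a1, Itgb5, Nid2, Col1a1 and Col4a2 held whichever single cell was left out, and those of Lamb1, Col5a1, Itga6 and Lamc1 did not. Col5a1 met the minimum only through the EHF Nkx2-5+/Tbx5+ cells and lends nothing to the count of lower members.

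In EB Tbx5+ against the other 9 cells, 2 members were higher and 8 lower, beside 16.2% and 33% of all genes, with medians of -0.75 and -0.28. Without EHF Nkx2-5+ cell 2, 1 of the 9 other cells, both medians were -0.29. Col18a1 (-3.83), Lama1 (-3.83), Lamb1 (-2.92) and Col4a2 (-2.28) had the lowest values. Col4a1 (1.64) and Sparc (1.19) were higher, the first through EB Tbx5+ cell 2 and the second through cell 1, without which their values were 0.66 and -0.94. Lamb1 was -0.19 and Col13a1 -0.29 without EHF Nkx2-5+ cell 2. Of the 8 lower calls, those of Col18a1, Lama1 and Col4a2 held whichever single cell was left out. Col5a1 and Lamb2, also called lower, met the minimum only through the EHF Nkx2-5+/Tbx5+ cells, and Col13a1 only through the EHF Nkx2-5+ cells. They lend nothing to the count of lower members.

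Between the EHF subpopulations, Nkx2-5+/Tbx5+ against Nkx2-5+, 7 members were higher and 4 lower, where 33.9% and 20.2% of all genes were, and the medians were 0.94 and 0.25. Itga5 (2.66), Itga6 (2.56), Col5a1 (2.28), Lamb2 (2.14), Itgb5 (1.72), Col4a1 (1.49) and Col18a1 (1.08) were higher. Itga5 was the member whose 3 cells all lay above the other 3, as did 5.61% of all genes. The lower members were Lamb1 (-4.48), Col13a1 (-2.36), Lama1 (-1.40) and Fn1 (-1.26). Without EHF Nkx2-5+ cell 2 these 4 were 0.46, 0, 1.17 and -0.25, so that 0 members were lower. Itga6 was -0.60 without EHF Nkx2-5+/Tbx5+ cell 2, and Itgb5 was 0.69 without cell 3. Without cell 1, Col18a1, Col4a1 and Col5a1 were -0.31, 0.34 and 0.80. Of these 11 calls, only those of Itga5 and Lamb2 held whichever single cell was left out. Of the 7 higher members, Col4a1, Col5a1, Itga5, Itga6 and Lamb2 had means under 10 RPM in the EHF Nkx2-5+ cells (1.79 to 5.22 RPM). Col5a1 and Lamb2 met the minimum only through the EHF Nkx2-5+/Tbx5+ cells, so they lend nothing to the count of higher members. Col13a1 met it only through the EHF Nkx2-5+ cells and lends nothing to the count of lower members.

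Between the stages within Nkx2-5+ cells, EHF against EB, 7 members were higher and 3 lower, beside 18.3% and 35.9% of all genes, with medians of 0.83 and -0.39. Without EHF Nkx2-5+ cell 2 these medians were -0.17 and -0.26, so that the position of the members above all genes rested largely on that cell. Lama1 (5.01), Col18a1 (3.63), Lamb1 (3.56), Col4a2 (1.90), Col1a1 (1.89), Nid2 (1.80) and Col13a1 (1.69) were higher. For Lama1 and Col18a1 all 3 EHF cells lay above all 3 EB cells, as they did for 2.17% of all genes. Lamb1 was -1.38 and Col13a1 -0.67 without EHF Nkx2-5+ cell 2, and Col4a2 and Col1a1 were -1.09 and 0.11 without cell 3. Itga9 (-1.34), Sparc (-1.32) and Itga5 (-1.17) were lower, and without EB Nkx2-5+ cell 1 they were 0.46, 0.41 and -0.54. The calls of Lama1, Col18a1 and Nid2 held whichever single cell was left out. Col13a1 met the minimum only through the EHF Nkx2-5+ cells, so it lends nothing to the count of higher members.

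With all 6 EHF against all 6 EB cells, 9 members were higher and 2 lower, where 20% and 26.7% of all genes were, and the medians were 1.13 and -0.19. Lama1 and Col18a1 led, followed by Lamb1 (2.96), Col4a2 (2.33), Col5a1 (2.03), Nid2 (1.88), Lamb2 (1.48), Col13a1 (1.25) and Col1a1 (1.13), while Sparc (-1.18) and Col4a1 (-1.04) were lower. Lamb1 was -0.76 and Col13a1 -0.37 without EHF Nkx2-5+ cell 2, Col1a1 0.57 without EHF Nkx2-5+ cell 3, Col5a1 0.86 without EHF Nkx2-5+/Tbx5+ cell 1 and Lamb2 0.61 without cell 3. Both lower calls were lost as well, Sparc being -0.36 without EB Tbx5+ cell 1 and Col4a1 -0.30 without EB Tbx5+ cell 2. The calls of Lama1, Col18a1, Col4a2 and Nid2 held whichever single cell was left out. Col13a1, Col18a1, Col1a1, Col4a2, Col5a1 and Lamb2, 6 of the 9 higher members, had EB means under 10 RPM (9.90 RPM for Col18a1) and met the minimum only through the EHF cells, so the count of higher members gets no support from them. The stages were also different embryos and different cell pickings, which cannot be told apart from stage.

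Genes that fold and modify collagen were compared as a separate list, of which 11 met the minimum. In EHF Nkx2-5+/Tbx5+ against the other 9 cells, 3 of these were higher and 4 were lower, and their median of -0.26 was close to that of all genes. Serpinh1, the collagen chaperone HSP47, had 163, 106 and 223 RPM in EB Nkx2-5+, 195, 121 and 335 RPM in EB Tbx5+, 379.9, 38.9 and 89.7 RPM in EHF Nkx2-5+, and 406, 796 and 1348 RPM in EHF Nkx2-5+/Tbx5+ cells. The last 3 lay above the other 9, a log2 difference of 2.15. Ppib, a prolyl isomerase of the collagen hydroxylation complex, had 841, 376 and 1044 RPM in EHF Nkx2-5+/Tbx5+ cells and 21.9 to 322 RPM in the others, likewise without overlap (2.27), as for 0.994% of all genes. In the other subpopulations the counts higher and lower were 3 and 3 (EHF Nkx2-5+), 1 and 4 (EB Tbx5+) and 1 and 4 (EB Nkx2-5+). The shares of all genes higher and lower were 19.7% and 31.5% (EHF Nkx2-5+/Tbx5+), 13.1% and 44.9% (EHF Nkx2-5+), 16.2% and 33% (EB Tbx5+) and 20.5% and 27.4% (EB Nkx2-5+). Lepre1, a collagen prolyl 3-hydroxylase, was at 2811 RPM in EHF Nkx2-5+ cell 2 and at most 202 RPM elsewhere. Bmp1, counted as higher in EHF Nkx2-5+ cells, met the minimum only through them, so it lends nothing to the counts, whether higher or lower.

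Of the listed genes for integrin adaptors and other integrin-binding proteins, 9 met the minimum. In EHF Nkx2-5+/Tbx5+ cells 3 were higher and 2 lower, in EHF Nkx2-5+ cells 0 and 5, in EB Tbx5+ cells 0 and 3, and in EB Nkx2-5+ cells 3 and 2, beside the all-gene shares just given. Zyx, the focal adhesion protein zyxin, had 389, 336 and 1870 RPM in EHF Nkx2-5+/Tbx5+ cells and 0.0802 to 289 RPM in the other 9, likewise without overlap (3.12). Serpinh1, Ppib and Zyx were each highest in EHF Nkx2-5+/Tbx5+ cell 3, which had the fewest genes and low Gapdh. Their values with single cells left out were not calculated. Ptk2, focal adhesion kinase, was higher in EB Nkx2-5+ (2.03), with 131, 204 and 0 RPM there. Serpinh1, Ppib and Zyx are on the study's list of genes enriched in EHF Nkx2-5+/Tbx5+ cells, and Ptk2 is on that for EB Nkx2-5+ cells. Both lists were drawn from these cells, so they give no independent evidence. Tns1, a tensin that binds integrin tails, was at 1965 RPM in EHF Nkx2-5+/Tbx5+ cell 3 and at most 0.0282 RPM in the other 11 cells. Tln1, also higher in this subpopulation (1.19), was at 85.3 RPM in its cell 1 and at most 28.1 RPM elsewhere. Tns1 and Tln1 met the minimum only through the EHF Nkx2-5+/Tbx5+ cells, so they lend nothing to that count. The lower calls of Tns1 in the other subpopulations (-4.51) rested on the same 1 cell. Itgb1bp1, counted as higher in EB Nkx2-5+ cells, met the minimum only through them, so it lends nothing to the counts, whether higher or lower.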

How the data were processed

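Single-cell cDNA primed with oligo(dT) was amplified by 20 PCR cycles, made into Nextera libraries by 13 further cycles and sequenced on an Illumina GA IIx. The authors deposited 1 signal per gene and cell in reads per 1000000 (RPM), normalised in Partek Genomic Suite 6.6. The submitters' notes also name CASAVA 1.7.0, with no step, and mm10. The aligner, not given in the sources used here, stays unnamed. The deposited sheet repeats the table in 64 copies. The first was read, with 14085 names, of which 22 had been turned into dates and were left out. With the alignment totals of the sheet, 96.3% of the RPM values worth 0.5 to 20 reads lay within 0.02 of a whole read, but whole counts were not used. Means of 3 cells were compared as log2 differences with 10 RPM added, among the 5031 genes whose mean over 12 cells reached 10 RPM, and 2-fold was the threshold. Detection meant 1 RPM. On this scale the difference of a low gene is understated. Since no label names an embryo, each subpopulation was 1 sample and no test was run, whereas the study treated cells as replicates. The calculation was tested on simulated data, where recovery of known changes was required only at a cell-to-cell spread far below that of these cells. The rate of false 2-fold calls at the spread of these cells is not reported here.

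The members and lists were chosen with earlier results of these data known. Named were the basement membrane, fibronectin and receptor core, members on the study's lists, up to 6 members with the highest and up to 4 with the lowest difference past 2-fold in each comparison, members whose cells did not overlap the others, and up to 3 genes of each other list per subpopulation. Alternatives were 1 or 100 RPM added, means of log2 values, medians, rescaling, no minimum or 50 RPM, other detection thresholds, and leaving out cells. Positions came from GENCODE M21 (GRCm38) and matched all 55 members, and promoters from RefSeq (GRCm38.p6), which matched 35. Python 3.11.15, numpy 2.4.6, pandas 2.3.3 and matplotlib 3.10.9 were used.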

Additional observations from a re-analysis of the deposited data

How the results depend on the processing

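Counts over the 17 members moved with most settings. Counts of cells with partner chains detected together varied with the detection threshold, as given with those counts. With 100 RPM added, the counts of members past 2-fold higher and lower were 1 and 1 in EHF Nkx2-5+/Tbx5+ and 0 and 3 in EB Tbx5+ cells, 0 were lower in EHF Nkx2-5+ and 2 in EB Nkx2-5+ cells, 1 was higher between the EHF subpopulations, and 3 were higher and 0 lower both between the Nkx2-5+ stages and between all EHF and all EB cells. With 1 RPM added, 5 were higher in EHF Nkx2-5+ and 1 in EB Nkx2-5+ cells, and 5 were lower between the Nkx2-5+ stages. With means of log2 values, 1 was lower in EHF Nkx2-5+/Tbx5+, 4 in EB Tbx5+ and 5 in EB Nkx2-5+ cells, 6 were higher and 3 lower in EHF Nkx2-5+ cells, 0 were lower between the Nkx2-5+ stages, and 5 were higher and 0 lower between all EHF and all EB cells. With medians over cells, 0 were lower in EHF Nkx2-5+/Tbx5+, 2 in EHF Nkx2-5+ and 5 in EB Nkx2-5+ cells, 4 were higher and 4 lower in EB Tbx5+ cells, 1 was lower between the EHF subpopulations, 4 were higher and 0 lower between the Nkx2-5+ stages, and 5 were higher between all EHF and all EB cells. Medians also turned Lamb1 to 0.087 in EB Nkx2-5+ cells, Lama1 to 0.36 between the EHF subpopulations, Col4a2, Itga9 and Sparc to -0.47, 0.53 and 0.44 between the Nkx2-5+ stages, and Sparc to 0.26 between all EHF and all EB cells. With no minimum mean, 6 members were higher in EHF Nkx2-5+ cells and 11 between the Nkx2-5+ stages. With a minimum of 50 RPM, which leaves fewer members, 3 were higher and 1 lower in EHF Nkx2-5+/Tbx5+ and 0 and 4 in EB Tbx5+ cells, 1 was lower in EHF Nkx2-5+ and 5 in EB Nkx2-5+ cells, 2 were higher between the EHF subpopulations, and 4 were higher and 0 lower between the stages in both comparisons. Rescaling without the 100 most abundant genes gave 6 higher in EHF Nkx2-5+ cells, moved the median of all genes by -0.12 (EHF Nkx2-5+/Tbx5+), 0.13 (EHF Nkx2-5+), -0.16 (between the EHF subpopulations) and 0.13 (between the Nkx2-5+ stages), and turned the sign of the uncalled values of Itga9 in EB Tbx5+ cells, Col4a2 between the EHF subpopulations and Lamc1 between all EHF and all EB cells.

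Without the 2 cells with the fewest genes (EHF Nkx2-5+/Tbx5+ cell 3 and EHF Nkx2-5+ cell 2), 0 members were lower in EHF Nkx2-5+/Tbx5+ cells and between the EHF subpopulations, 4 were lower in EB Tbx5+ cells, 1 was higher in EB Nkx2-5+ cells, and 5 were higher and 1 lower between all EHF and all EB cells. Col13a1 and Lamb1 were then -0.29 and -0.83 in EHF Nkx2-5+ cells, Lamb1 1.12 in EB Nkx2-5+ cells, -1.38 between the Nkx2-5+ stages and -1.12 between all EHF and all EB cells, and Fn1 and Lama1 0.33 and 0.47 between the EHF subpopulations. As each cell was left out in turn, the counts higher and lower ranged from 7 to 9 and 0 to 6 in EHF Nkx2-5+/Tbx5+, 2 to 6 and 5 to 8 in EHF Nkx2-5+, 1 to 3 and 6 to 10 in EB Tbx5+ and 0 to 1 and 8 to 12 in EB Nkx2-5+ cells, 5 to 9 and 0 to 5 between the EHF subpopulations, 6 to 9 and 0 to 6 between the Nkx2-5+ stages and 8 to 11 and 1 to 3 between all EHF and all EB cells. The members' median ranged from 0.35 to 1.19 in EHF Nkx2-5+/Tbx5+, -0.87 to 0.04 in EHF Nkx2-5+, -1.35 to -0.29 in EB Tbx5+ and -1.64 to -0.995 in EB Nkx2-5+ cells, 0.32 to 1.09 between the EHF subpopulations, -0.17 to 1.45 between the Nkx2-5+ stages and 0.61 to 1.33 between all EHF and all EB cells. Values that turned ranged from -0.26 to 2.59 (Col13a1), -0.88 to 4.63 (Lamb1), -3.56 to 0.96 (Lamb1, EB Nkx2-5+), -0.94 to 1.68 (Sparc, EB Tbx5+), -1.70 to 2.04 (Itga6) and -0.16 to 1.95 (Nid2) against the other 9 cells, from -0.60 to 3.17 (Itga6), -2.10 to 1.17 (Lama1) and -5.09 to 0.46 (Lamb1) between the EHF subpopulations, from -1.09 to 2.67 (Col4a2), -1.78 to 0.46 (Itga9), -1.38 to 5.01 (Lamb1) and -1.75 to 0.41 (Sparc) between the Nkx2-5+ stages, and from -0.76 to 3.63 (Lamb1) between all EHF and all EB cells. The calls of Lama1 and Col18a1 between the stages and of Itga5 in EHF Nkx2-5+/Tbx5+ cells were not lost by leaving out any single cell. The cause of the other changes was not tested. No paired analysis was possible because the results come from no test, each subpopulation counting as 1 sample, and the replicate numbers only name cells.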

Other observations

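Other matrix genes ranged from widely detected ones to ones high in single cells. Dag1 was at 1 RPM or more in all 12 cells (1.15 to 286 RPM), Agrn in 10 and Fbln1 in 9. Of the 9 other matrix genes that met the minimum of 10 RPM, 2 were past 2-fold higher and 3 lower in EHF Nkx2-5+/Tbx5+, 1 and 5 in EHF Nkx2-5+, 2 and 6 in EB Tbx5+ and 1 and 5 in EB Nkx2-5+ cells, where the shares of all genes were 19.7% and 31.5%, 13.1% and 44.9%, 16.2% and 33%, and 20.5% and 27.4%. Fbn2, a fibrillin of embryonic microfibrils, was at 139.9 and 300.3 RPM in EHF Nkx2-5+/Tbx5+ cells 2 and 3 and at most 5.33 RPM elsewhere. Hapln1, which links hyaluronan to proteoglycans in cardiac jelly, was at 56.7 RPM in EHF Nkx2-5+ cell 1 and at 38 and 28 RPM in EHF Nkx2-5+/Tbx5+ cells 1 and 2, and at most 0.561 RPM in the other 9 cells, so that 3 EHF cells and 0 EB cells exceeded 1 RPM. Emilin1, an elastic fibre glycoprotein, was at 1080.3 RPM in EHF Nkx2-5+ cell 2, the cell with the highest laminin sum, and at most 71.3 RPM elsewhere. Eln, encoding elastin, was at 162 RPM in EB Nkx2-5+ cell 3 and at most 1.22 RPM elsewhere. Frem2 was at 138 RPM in EB Tbx5+ cell 3 and at most 0.629 RPM elsewhere. Fbn2, Frem2 and Eln met the minimum only through the subpopulation where each was higher, so they lend nothing to those counts, whether higher or lower. Fbn2 is also on the study's list for EHF Nkx2-5+/Tbx5+ cells.

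Of the matrix proteases and their inhibitors 2 met the minimum, and both were higher in EHF Nkx2-5+/Tbx5+ cells, as were 19.7% of all genes. Mmp14, a membrane-bound collagenase, was at 183 and 40.8 RPM in EHF Nkx2-5+/Tbx5+ cells 1 and 3 and 46.8 RPM in EB Nkx2-5+ cell 1, and Mmp2, the gelatinase it activates, at 141 RPM in EHF Nkx2-5+/Tbx5+ cell 1 and 89.7 RPM in EB Tbx5+ cell 1. Apart from these cells, neither exceeded 2.85 RPM. Mmp14 met the minimum only through the EHF Nkx2-5+/Tbx5+ cells, so it lends nothing to the count of higher genes.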
